A study of Mus musculus with 4 samples.

Results

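The oligoadenylate synthetase (OAS) genes Oas1a, Oas1c, Oas1g, Oas2, Oas3, Oasl1 and Oasl2 were followed across the immune and other non-parenchymal cells of the mouse liver. They are 7 of the 31053 genes in the single-cell RNA-seq matrix, found by their symbols, and all 7 had unique molecular identifiers (UMIs, counts of single captured mRNA molecules) in each library. The Ex group had 2 libraries (Ex 1 and Ex 2) from mice exercised before an operation, and the Sed group had 2 libraries (Sed 1 and Sed 2) from sedentary mice. All mice were male, 8 weeks of age by the label, and bore tumours of MC38, a mouse colorectal cancer line used here as a model of liver metastasis promoted by surgical stress. Livers were collected at 3 weeks from the injection of tumour cells, and immune cells were enriched with CD45 beads after most hepatocytes had been spun out. The labels give no strain and do not say that each library came from a separate animal, so the p-values measure only the spread between these libraries.

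OAS proteins sense double-stranded RNA, a sign of viral infection, and the active synthetases then join ATP into short oligoadenylates, which act as an antiviral signal inside the cell. Their genes are classical targets of type I and type III interferons, whose receptors signal to a short promoter element called the interferon-stimulated response element. In the liver, Kupffer cells, the resident macrophages, and recruited monocytes and neutrophils are all known to respond to interferon.

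All 7 genes lie on mouse chromosome 5, as protein-coding genes in the GENCODE M21 annotation of GRCm38, the build named in the submitters' processing notes. The OAS-like pair, Oasl2 (chr5:114896936-114912234, plus strand) and Oasl1 (chr5:114923240-114937915, plus strand), are separated by 11.0 kb. A second group lies 5792 kb away on the minus strand, in the order Oas2 (chr5:120730333-120749853), Oas3 (chr5:120753098-120777661), Oas1c (chr5:120800194-120812514), Oas1g (chr5:120876142-120887613) and Oas1a (chr5:120896256-120907521). No member overlaps another gene on its own strand. The last 300 bases of the longest coding transcripts, where a 3′ assay reads, were 49.7% to 58.0% identical between members, and no pair shared a stretch of 90 bases, the length compared. How reads matching several genes were counted is not given in the sources used here.

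Promoter windows of RefSeq genes (GRCm38.p6, 250 bases before to 50 bases after the gene start) were found for 6 of the 7 members; Oas2 was the other. They were searched on both strands for the core of the interferon-stimulated response element, GAAA, any 2 bases and GAAA again. It stood in 4 of those 6 windows, against 1131 of all 32851 promoter windows (3.44%). The windows of 4 members are shown because Oas1a and Oas1g share the element at almost the same place, Oas3 holds another copy of it, and Oasl2, often the most abundant member in these cells, holds none; capitals mark the matches, and each line reads in the direction of the gene.
Oas1a, chr5:120907476-120907775, minus strand: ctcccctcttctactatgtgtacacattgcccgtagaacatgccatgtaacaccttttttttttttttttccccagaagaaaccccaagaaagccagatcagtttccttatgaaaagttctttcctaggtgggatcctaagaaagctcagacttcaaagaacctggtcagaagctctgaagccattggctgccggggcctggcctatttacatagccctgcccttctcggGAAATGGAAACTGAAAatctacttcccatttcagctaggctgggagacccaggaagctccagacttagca
Oas1g, chr5:120887564-120887863, minus strand: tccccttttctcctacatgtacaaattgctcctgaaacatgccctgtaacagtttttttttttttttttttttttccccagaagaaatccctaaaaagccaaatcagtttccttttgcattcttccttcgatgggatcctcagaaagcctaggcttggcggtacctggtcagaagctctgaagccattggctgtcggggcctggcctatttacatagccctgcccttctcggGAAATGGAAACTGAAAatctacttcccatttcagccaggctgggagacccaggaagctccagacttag
Oas3, chr5:120777610-120777909, minus strand: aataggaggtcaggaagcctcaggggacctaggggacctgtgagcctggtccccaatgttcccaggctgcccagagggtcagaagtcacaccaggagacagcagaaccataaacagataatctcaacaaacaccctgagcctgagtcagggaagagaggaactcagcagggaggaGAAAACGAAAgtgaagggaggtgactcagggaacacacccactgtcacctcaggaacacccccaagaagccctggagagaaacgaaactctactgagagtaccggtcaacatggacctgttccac
Oasl2, chr5:114896684-114896983, plus strand: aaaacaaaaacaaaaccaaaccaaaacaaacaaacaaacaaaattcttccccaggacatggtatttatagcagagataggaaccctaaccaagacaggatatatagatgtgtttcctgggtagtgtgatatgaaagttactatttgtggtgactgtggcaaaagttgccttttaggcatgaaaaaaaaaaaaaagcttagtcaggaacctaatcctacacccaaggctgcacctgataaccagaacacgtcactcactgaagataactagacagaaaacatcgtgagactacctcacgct

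The windows of Oas1a and Oas1g were 87.0% identical. In both, GAAATGGAAA and GAAACTGAAA overlapped, and they began 20 and 14 bases before the start of Oas1a and 18 and 12 bases before that of Oas1g. The single match of Oas3, GAAAACGAAA, began 75 bases before its start. Oas1c had overlapping matches in the opposite direction, TTTCAGTTTC and TTTCCATTTC, which began 114 and 108 bases before its start. Neither Oasl1 nor Oasl2 held these letters in its window, which says nothing of other sites or other spellings of the element.

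After filtering, 5763 and 4097 cells were kept in Ex 1 and Ex 2, against 6839 and 7141 in Sed 1 and Sed 2, with median UMIs per cell of 3749 and 3701 in Ex and 3284 and 3286 in Sed. The median mitochondrial share was 3.92% and 4.35% in Ex and 2.61% and 2.95% in Sed, and 166 cell barcodes occurred in more than 1 library. Clusters were made without the 7 members and named from marker lists; every class is called by a "-like" name. Tests were run on the 11 classes that held 30 cells or more in each of the 4 libraries. The make-up of the libraries differed: other macrophage-like cells were 13.7% and 7.35% of the Ex cells and 3.58% and 4.96% of the Sed cells, and neutrophil-like cells numbered 556 and 356 in Ex against 2217 and 1239 in Sed. Levels below are CPM, UMIs of a gene per 1000000 UMIs of the same class and library; they count transcript ends and do not grow with transcript length.

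Summed over all kept cells, the 7 members reached 236 and 158 CPM in Ex against 477 and 458 CPM in Sed. Myeloid cells held most of this RNA, but different ones in the 2 groups. Other macrophage-like cells gave 51.7% and 42.5% of all OAS UMIs in the Ex libraries, against 6.41% and 12.4% in the Sed libraries. Monocyte-like cells gave 13.2% and 16.7% in Ex against 38.6% and 30.2% in Sed, and neutrophil-like cells 13.8% and 15.4% in Ex against 37.5% and 19.4% in Sed. The sums over all cells therefore mix the level per class with the number of cells of each class, and the comparisons that follow stay within a class.

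Averaged over the 4 libraries, the family level was highest in 4 myeloid classes. It was 711 ± 295 CPM in neutrophil-like, 586 ± 100 in other macrophage-like, 471 ± 264 in Kupffer-like and 362 ± 197 in monocyte-like cells (SD, n = 4 libraries each). Lower means were those of endothelial-like cells (132 ± 83.1 CPM), conventional type 1 dendritic-like cells (127 ± 47.0), cycling cells (110 ± 80.1), CD4 T-like (97.2 ± 55.3), CD8 T-like (93.4 ± 19.9), B-like (67.2 ± 38.6) and NK-like cells (64.4 ± 19.4 CPM; SD, n = 4 each). Every pair of neighbours in this order overlapped in its range over libraries, partly because Ex and Sed libraries are pooled in it, monocyte-like and endothelial-like cells among them, so the order of neighbours is not resolved. For the single members the order of classes differed, but neighbours overlapped in the same way: only Oas2 in CD8 T-like over NK-like cells did not overlap.

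**Figure D1:**
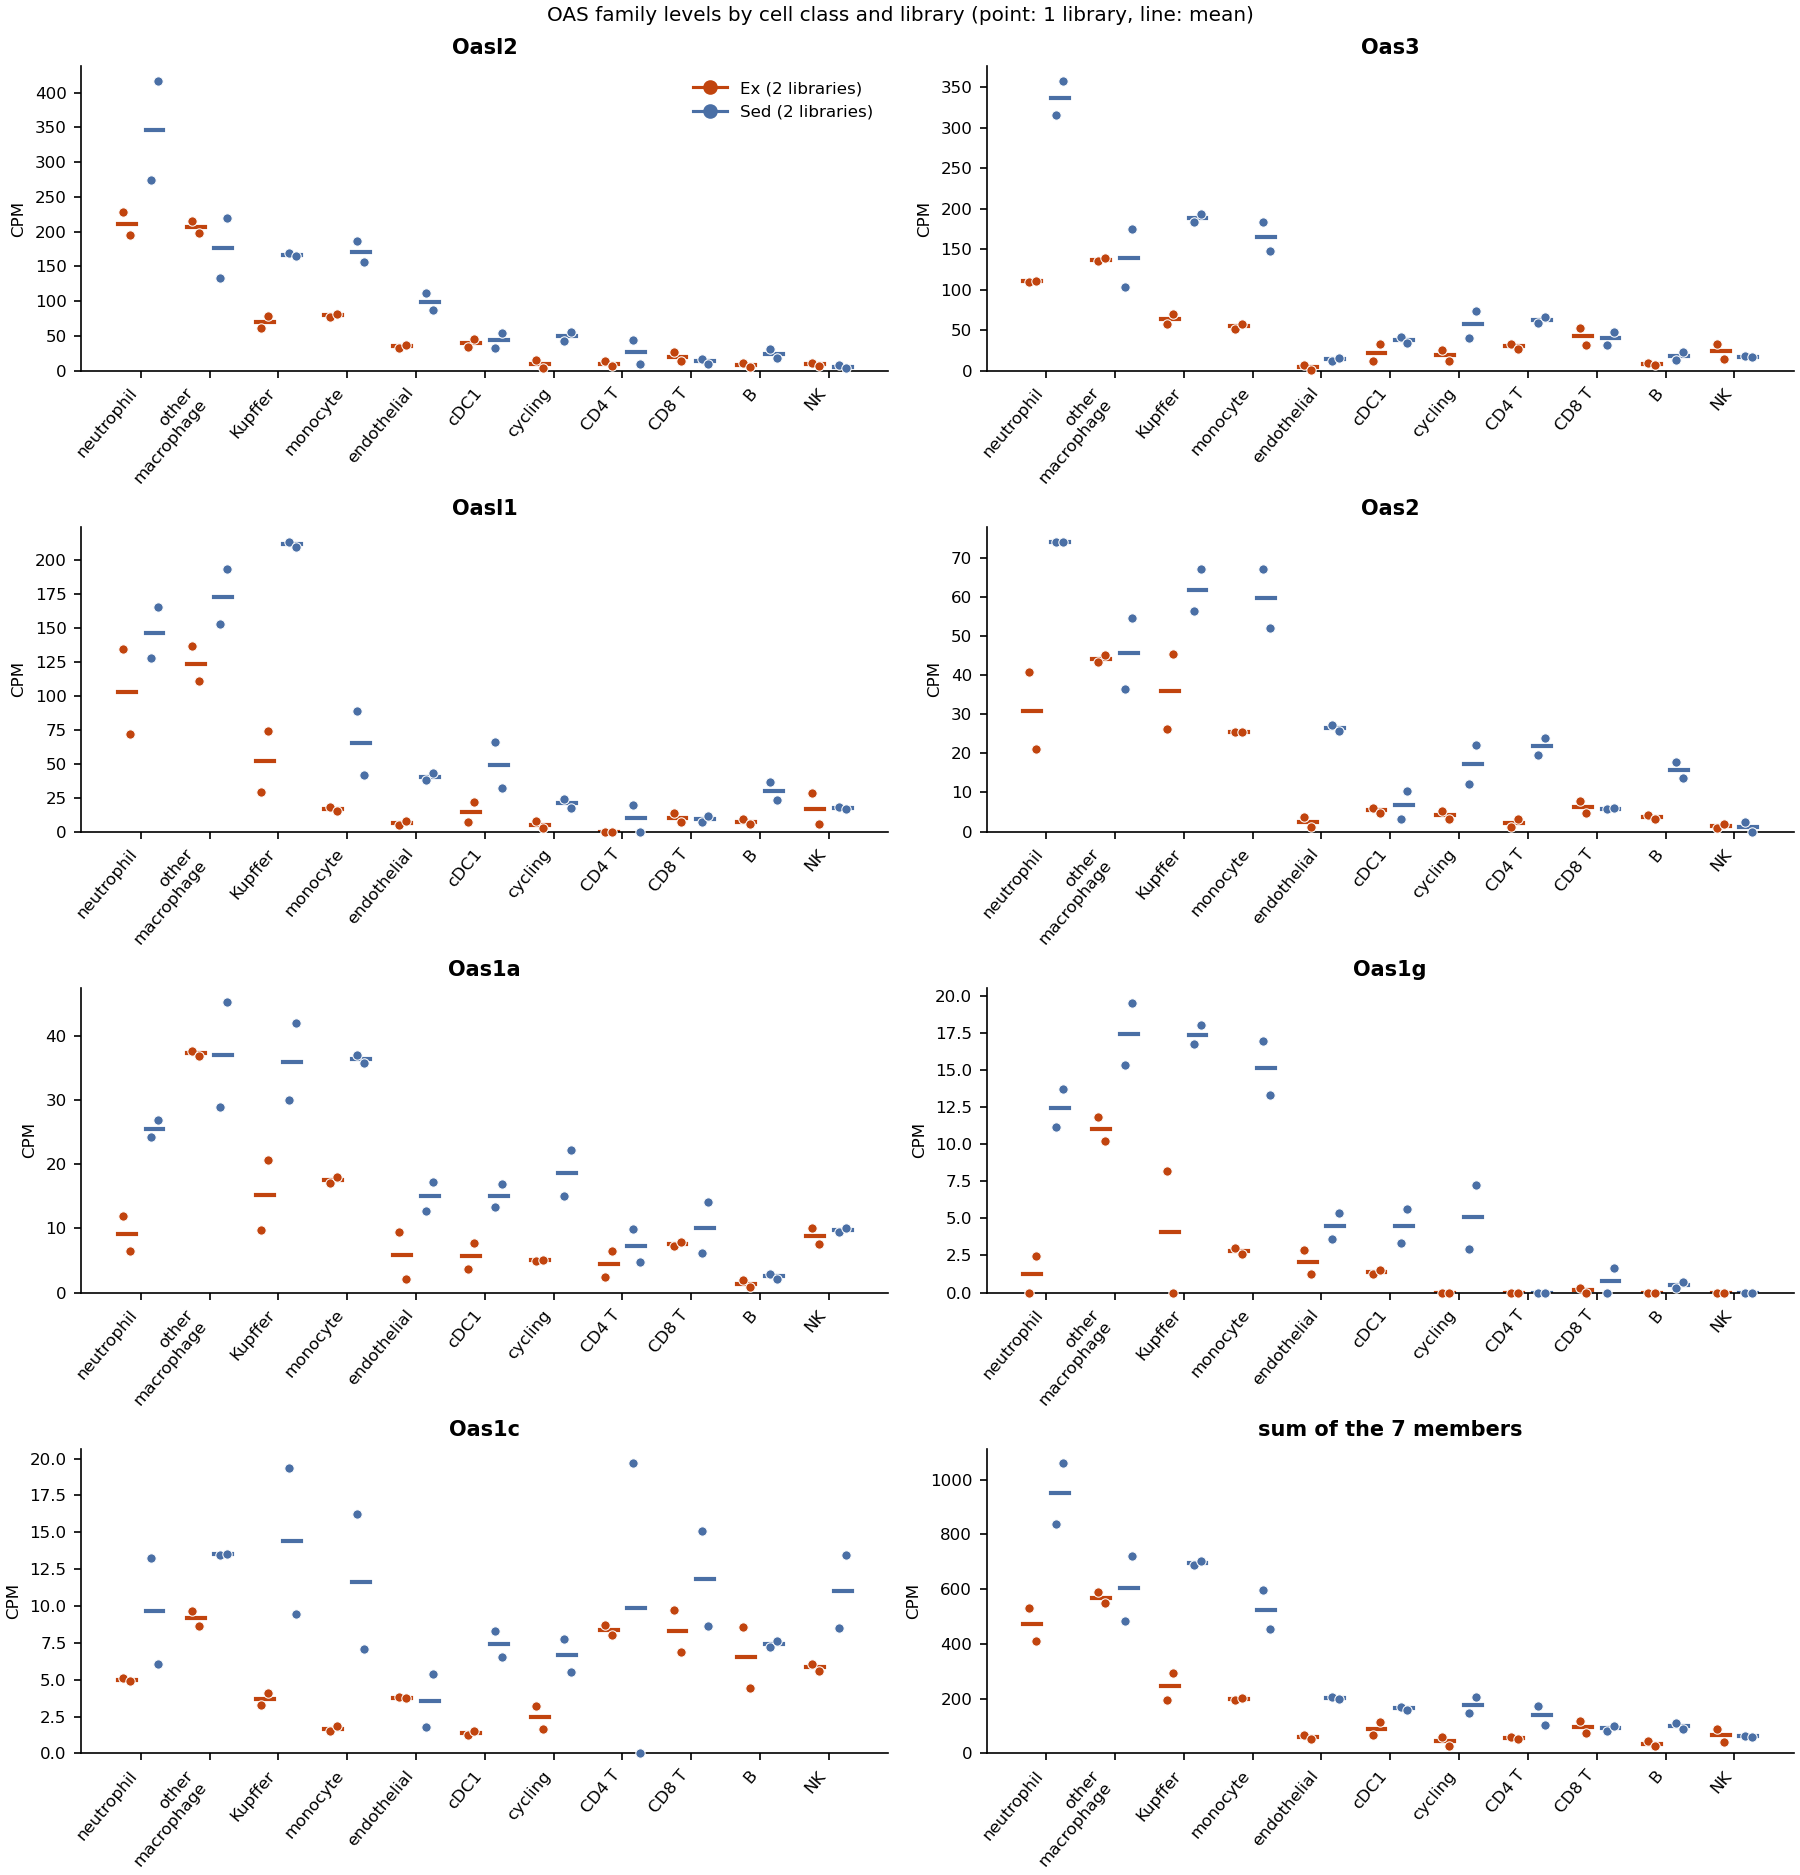
Level of each OAS member and of their sum (CPM, linear axis from 0) in 11 cell classes; each point is 1 library, each line a group mean, Ex at the left and Sed at the right within each class (cDC1: conventional type 1 dendritic-like). In monocyte-like cells both Ex points lie under both Sed points for all 7 members, while in CD8 T-like cells the points of the groups overlap for each member.

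Oasl2, an OAS-like protein with ubiquitin-like domains that keeps synthetase activity in the mouse, was the member most used by several myeloid classes and by endothelial-like cells. In endothelial-like cells it made up 50.7% and 69.0% of the family UMIs in Ex and 53.9% and 43.7% in Sed, and it led in every class sum. The clusters of this class differed between groups. In the shared cluster led by Clec4g, Oasl2 led in Ex (29.6 and 24.1 CPM) and in Sed 1 (202 CPM). In Sed 2 of that cluster, from 111 cells, it had 48.9 CPM, under Oasl1 (97.8) and Oas3 (73.4). It also led in every monocyte-like sum, with 39.8% and 40.4% in Ex against 31.3% and 34.4% in Sed, where Oas3 was close behind at 30.8% and 32.6%. In neutrophil-like cells Oasl2 led in both Ex libraries (43.0% and 47.2%) and in Sed 2 (39.3%), while Oas3 led in Sed 1 (37.6%). Conventional type 1 dendritic-like cells were led by Oasl2 except in Sed 1, where Oasl1 was first.

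Oas3, the largest family member and a sensor of long double-stranded RNA, was first in the lymphocytes of the T and NK classes. It gave 56.2% and 53.1% of the family UMIs in Ex CD4 T-like cells and 34.3% and 63.6% in Sed, and 44.6% and 44.2% in Ex CD8 T-like cells against 38.2% and 48.4% in Sed. In NK-like cells it was first in Ex with 37.1% and 34.8%, and level with Oasl1 in both Sed libraries at 28.0% and 27.8%. The Sed NK-like values rest on 21 and 5 UMIs of each gene, and the CD4 T-like values on 12 to 27 UMIs of Oas3 per library. In the sums of endothelial-like cells, in contrast, Oas3 was low, with 7.60 and 0.836 CPM in Ex and 12.7 and 15.5 CPM in Sed. In their Clec4g cluster it was higher in Sed, with 55.1 and 73.4 CPM against 13.1 and 2.41 CPM in Ex.

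Oasl1 lacks synthetase activity and is known in the mouse to hold back the translation of Irf7, the transcription factor that amplifies interferon production. It was the leading member in the sums of Sed Kupffer-like cells (31.0% and 29.7%), whereas in the Ex sums Oasl2 was first by few UMIs (31.7% and 26.8%). B-like cells showed the same split for Oasl1, which led in both Sed libraries (33.5% and 26.6%) and in neither Ex library, although in Sed 2 it had 34 UMIs against 33 of Oas3. The Ex Kupffer-like values rest on few molecules. In Ex 1 there were 38 UMIs of Oasl2 and 35 of Oas3. In Ex 2 there were 19 UMIs of Oasl2, 18 of Oasl1 and 17 of Oas3, so the order is not resolved in either library. In the Kupffer-like cluster led by Marco, Oas3 led in Ex 1 (62.3 CPM, Oasl2 43.6) and Oasl1 in Ex 2 (76.9 CPM, Oasl2 59.8). In Sed that cluster had 150 and 148 CPM of Oasl1 and 119 and 148 CPM of Oas3.

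The remaining members were minor. Oas2, whose synthetase unit is repeated, reached at most 74.1 CPM in a tested class, in Sed 2 neutrophil-like cells. Oas1a and Oas1g, the small synthetases, peaked at 45.2 and 19.6 CPM, both in Sed 2 other macrophage-like cells. Oas1g was 0 in all 4 libraries of CD4 T-like and NK-like cells; in the CD4 T-like class a count of 0 allows up to 2.11 CPM over the Ex group and 7.27 CPM over the Sed group. Oas1c had the flattest profile: its class means ran from 3.68 CPM in endothelial-like to 11.3 CPM in other macrophage-like cells, and it was the only member for which CD8 T-like and CD4 T-like cells came just after other macrophage-like cells.

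**Figure D2:**
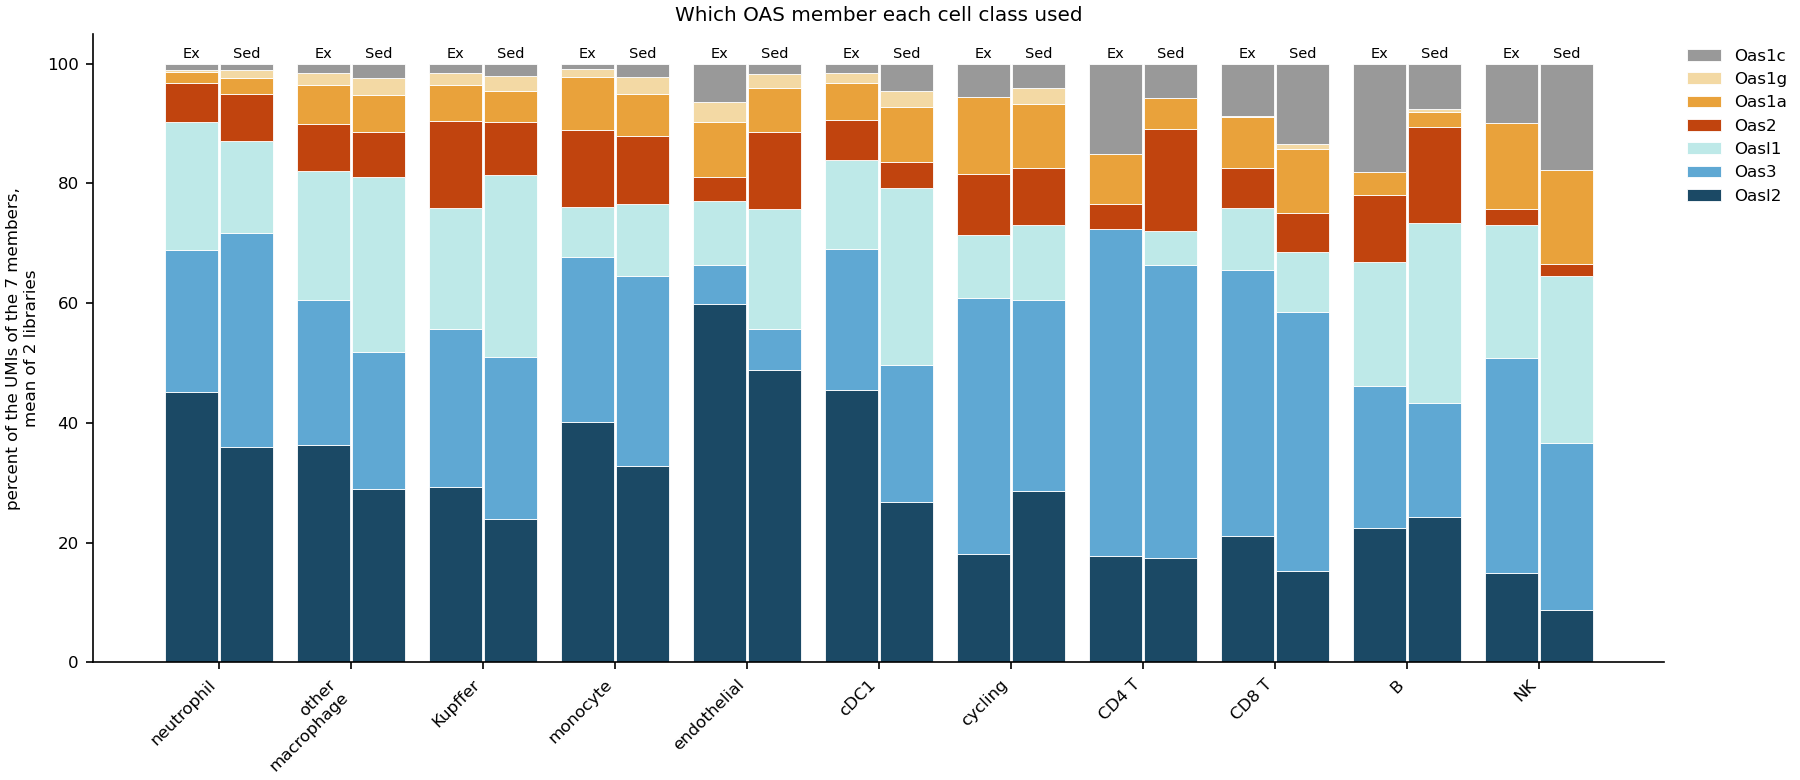
Make-up of the OAS family in each cell class: percent of the UMIs of the 7 members taken by each (y axis, from 0 to 100), as the mean of 2 libraries, Ex at the left and Sed at the right of each pair. Oasl2 takes the largest block in endothelial-like cells and Oas3 in CD4 and CD8 T-like cells of both groups.

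Across the 11 classes the members did not follow one profile. Pearson's r of log2(CPM + 1), averaged over the libraries, was highest between Oas1g and Oasl2 (0.918) and between Oas2 and Oasl2 (0.909), and ran from 0.036 to 0.429 between Oas1c and the others. Among 10673 genes, the closest profile to that of Oasl2 was Slc6a6 (0.965), followed by Picalm and Pla2g7 (0.956 each). Oas3 was closest to Cd44 (0.932), Slfn1 (0.919) and Zbp1 (0.913), and Oasl1 to Ehd1 (0.925), Skil (0.917) and Rab20 (0.913). The nearest to Oas1a were Chmp4b (0.953), Metrnl (0.949) and Gga1 (0.917), to Oas1g Nampt (0.964), Ftl1 (0.961) and Cd300c2 (0.955), and to Oas2 Wfdc17 (0.944), Klra2 (0.943) and Lpcat2 (0.936). For Oas1c no gene came closer than Hilpda (0.779), then Mgat4a (0.755) and Slfn8 (0.746). These values describe 11 classes that share libraries and depth.

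The next question was whether Ex and Sed differed within a class. The UMIs of each class were added up within a library, and edgeR was run on these sums over all genes; "fell" and "rose" are used of genes with an adjusted p under 0.05. Of 77 member and class pairs, 55 passed the low-count filter and were tested; the other 22 were under it. In 14 of the 55 the member fell in Ex, and in none did it rise; over all genes and classes 1.19% of pairs fell and 0.943% rose. The log2 change was below 0 in 47 of the 55, against 50.2% of all pairs. In 40 pairs both Ex libraries lay below both Sed libraries and in 0 pairs both lay above, against 20.4% and 27.0% of all pairs. The low-count filter can be passed by the libraries of 1 group alone. Oas2 in endothelial-like cells (7 UMIs in Ex, 58 in Sed) and Oas1g in neutrophil-like cells (3 and 119) entered through Sed. For such pairs the filter itself favours a lower level in Ex. The same filter held for all genes, and all pairs share the same libraries. By unadjusted p under 0.05, 35 pairs were lower and 0 higher in Ex, against 7.65% and 7.33% of all pairs, and DESeq2, which gave an adjusted p for 47 pairs, called none higher. With clusters made at resolution 2, Oasl2 rose in CD8 T-like cells (1.42, edgeR adjusted p = 0.0105), where 1139 of 8631 genes were called. It was the 1 call in that direction among the alternatives. The median log2 change of all genes ran from -0.0132 in cycling cells to 0.0234 in NK-like cells.

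Monocyte-like cells had the most members called. All 7 members had lower levels in both Ex libraries, and 6 of 7 fell, where 1.19% of all genes tested fell and 26.4% lay lower in Ex without overlap. Oas3 had 51.9 and 57.5 CPM in Ex against 183 and 148 CPM in Sed, a log2 change of -1.60 ± 0.18 (SE; edgeR adjusted p = 0.00512). Oasl2 had 77.1 and 81.9 CPM in Ex against 186 and 156 CPM in Sed (-1.10 ± 0.17, adjusted p = 0.0132). The pairs of each group lay close together for both genes and far from the other group. Oas2 had 25.4 and 25.5 CPM in Ex against 67.1 and 52.0 in Sed (-1.22 ± 0.20, adjusted p = 0.0171), and Oas1a 17 and 18.1 against 37.1 and 35.7 (-1.05 ± 0.19, adjusted p = 0.0208). The low members Oas1g (3.02 and 2.58 CPM in Ex, 17 and 13.4 in Sed; -2.40 ± 0.33, adjusted p = 0.0105) and Oas1c (1.51 and 1.84 in Ex, 16.2 and 7.09 in Sed; -2.81 ± 0.56, adjusted p = 0.0442) also fell. Oasl1 had 17.9 and 15.1 CPM in Ex against 89.0 and 41.7 CPM in Sed, with Sed libraries that differed from each other, and missed the threshold (-1.97 ± 0.47, adjusted p = 0.124); at resolution 2 its log2 change was 0.01 (adjusted p = 0.99). In cells thinned to 2000 UMIs each, 27.9% and 27.4% of Ex and 68.2% and 57.7% of Sed monocyte-like cells had a UMI of any member; unthinned, the shares were 49.3% and 51.1% in Ex against 93.2% and 88.5% in Sed. Without Ex 1 and without Ex 2 none of the 6 was called, with log2 changes from -2.91 to -1.04. Those fits leave 1 Ex library and lost nearly all calls over all genes, so the loss is not particular to the members. Over the alternatives run on the whole class the highest edgeR adjusted p of the 6 was 0.504.

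The monocyte-like class held different clusters in the groups. A cluster led by Chil3 and Vcan had 45 and 36 cells in Ex against 1029 and 813 in Sed, and one led by Tppp3 had 639 and 305 cells in Ex against 119 and 602 in Sed. Within each of them, and in another led by Ace, the family level lay lower in both Ex libraries. It was 119 and 319 CPM in Ex against 597 and 388 in Sed in the Chil3 cluster, 205 and 189 against 565 and 545 in the Tppp3 cluster, and 152 and 92.4 against 605 and 688 in the Ace cluster. Tested alone, a step added after the class results were seen, 6 of 7 members fell in the Tppp3 cluster, Oasl1 among them (-1.93 ± 0.28, edgeR adjusted p = 0.00439) and Oas1c not, where 0.788% of all genes fell. In the Chil3 cluster no gene of 9201 passed the threshold in this direction (0.00%); 6 of the 7 members had an unadjusted p under 0.05, against 8.50% of all genes, and the members' median log2 change was -1.33. Neutrophil markers moved with the groups as well: the 9 listed summed to 383 and 1250 CPM in the Ex monocyte-like cells and to 12600 and 5470 CPM in Sed, against 165000 to 280000 CPM in neutrophil-like cells, and none of the 9 was at 0. The 8 monocyte markers themselves summed to 5330 and 6480 CPM in Ex against 22700 and 12700 CPM in Sed, and the 4 erythroid markers to 1070 and 1780 CPM in Ex against 249 and 21 in Sed. The part of these transcripts in the OAS difference was not tested.

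Neutrophil-like cells had fewer calls; their family level was the highest in both Sed libraries, while in both Ex libraries that of other macrophage-like cells was higher. Oas3 had 110 and 111 CPM in Ex against 316 and 358 CPM in Sed and fell (-1.79 ± 0.25, edgeR adjusted p = 0.0194); it was the only member of 7 to do so, where 0.114% of all genes fell. Oasl2, the most abundant, had 228 and 195 CPM in Ex against 274 and 417 in Sed, and Oas2 had 40.7 and 21.2 against 73.9 and 74.1. Neither passed the threshold (-0.89 ± 0.30, adjusted p = 0.31; -1.38 ± 0.35, adjusted p = 0.212), although neither overlapped between groups. In all, 6 of the 7 lay lower in Ex without overlap, against 12.3% of all genes, and the exception was Oasl1, with 134 and 71.7 CPM in Ex and 127 and 165 CPM in Sed. Oas1g rested on 3 UMIs in Ex against 119 in Sed. The Oas3 call was lost without Ex 1 and without Ex 2, and more members were called without Sed 1 and without Sed 2. Calls over all genes were lost and gained in the same fits. Each of these leaves 1 library in a group, so the shifts are not particular to the members.

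A neutrophil-like cluster led by Retnlg and BC100530 had 25 and 14 cells in Ex against 1381 and 523 in Sed, with a family level of 346 and 358 CPM in Ex against 1000 and 1070 in Sed. In the cluster led by Acod1, with 461 and 301 cells in Ex and 438 and 588 in Sed, it was 763 and 521 CPM against 1056 and 1322, and edgeR called none of 7 members, 5 of them with an unadjusted p under 0.05 (0.146% of all genes fell, and 6.46% had such a p). The cluster of immature type led by the granule genes Ltf and Camp had 59.96 and 106 CPM in Ex against 511 and 469 in Sed, from 70 and 41 cells in Ex and 398 and 128 in Sed. There 3 of 4 members tested fell, where 0.668% of all genes did: Oasl2 by 3.82 ± 0.44 (SE, log2; edgeR adjusted p = 7.6e-05), Oas3 by 2.50 ± 0.30 (0.000119) and Oasl1 (0.0224). The share of cells with any member's UMI, thinned to 2000 UMIs, was 42.8% and 41.8% in Ex against 77.7% and 77.2% in Sed neutrophil-like cells.

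Kupffer-like cells were defined by Clec4f, Vsig4, Timd4, Marco and other resident-macrophage genes, whose 9 markers summed to 13700 and 18900 CPM in Ex and 11500 and 21200 CPM in Sed. All 6 members tested lay lower in Ex without overlap, against 26.8% of all genes, and 1 fell, against 0.141%. Oasl1 had 29.4 and 74.4 CPM in Ex against 213 and 209 CPM in Sed (-2.09 ± 0.38, edgeR adjusted p = 0.038). Oas3 had 57.2 and 70.2 CPM in Ex against 184 and 194 CPM in Sed and just missed the threshold (-1.50 ± 0.30, adjusted p = 0.0586). Oasl2 had 62.2 and 78.5 CPM in Ex against 169 and 165 in Sed (-1.18 ± 0.30, adjusted p = 0.166), and Oas2 had 26.2 and 45.4 against 56.4 and 67.1 (-0.81 ± 0.36, adjusted p = 0.524). The Sed libraries agreed closely for Oasl1, Oas3 and Oasl2, and the Ex libraries differed most for Oasl1. The Ex values rest on few molecules, 36 UMIs of Oasl1 in Ex against 1239 in Sed. The Oasl1 call was lost without Ex 1, a fit that leaves 1 Ex library. It was also lost with doublets kept (7 of 7417 genes called) and with thinned sums (8 of 3603). At resolution 2 (0 of 6567 genes called) and with members left among the clustering genes (0 of 6931) it was lost with every other call. The same held without the cluster of lowest UMIs (0 of 5701).

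Few Kupffer-like cells were deep enough for thinning to 2000 UMIs, 54 and 36 in Ex against 115 and 501 in Sed; of these 31.5% and 47.2% had a UMI of any member in Ex, against 69.6% and 75.4% in Sed. Their exact 95% intervals were 19.5% to 45.6% and 30.4% to 64.5% in Ex, against 60.3% to 77.8% and 71.4% to 79.2% in Sed, for counting error only. The cluster led by Marco held 403 and 80 cells in Ex against 234 and 587 in Sed, and the one led by Cd163 and Clec4f held 24 and 24 against 80 and 442. The family level was 176 and 231 CPM in Ex against 452 and 525 in Sed in the Marco cluster, and 270 and 352 against 786 and 734 in the Cd163 cluster, so it lay lower in Ex in both. In the Marco cluster alone edgeR called no member of 5, 4 of them with an unadjusted p under 0.05 (0.114% of all genes fell, and 9.63% had such a p). The Cd163 cluster alone is the fit without the cluster of lowest UMIs given above, not a further check. Oasl1 was not called in it (-2.31, edgeR adjusted p = 0.104), where 0 of 5701 genes were called. The 9 neutrophil markers summed to 1410 CPM in the Kupffer-like cells of Ex 1, against 90.9 in Ex 2 and 344 and 200 in Sed 1 and Sed 2. If all B-cell marker RNA in these cells were free RNA of the average make-up of its library, that RNA would bring 7.12% and 4.47% of the family level in Ex and 2.29% and 4.10% in Sed.

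Other macrophage-like cells, named from a marker list with Gpnmb, Trem2, Spp1 and C1q genes, kept high levels in both groups. A cluster led by Cxcl9, Arg1, Spp1 and Cxcl10 made up 84.8% and 91% of the class in Ex and 89.8% and 49.2% in Sed. Oasl2 had 215 and 199 CPM in Ex against 133 and 220 CPM in Sed (0.27 ± 0.25, edgeR adjusted p = 0.646), Oas3 had 135 and 140 against 103 and 176 (0.02 ± 0.26, adjusted p = 0.976), and Oasl1 had 137 and 111 against 153 and 193 (-0.44 ± 0.21, adjusted p = 0.403). The Ex values of Oasl2 and Oas3 lay within the Sed range. At resolution 2, 1014 of these cells went to the monocyte-like class. A cluster of 1174 cells led by Cxcl9 and Cxcl10 was named monocyte-like there, by a marker score of 1.16 against 1.04 for other macrophages. The border between the 2 classes is thus narrow, and its part in the OAS differences was not tested. In the other macrophage-like class as it stood at resolution 2 all 7 members had a log2 change below 0, and 0 of 8730 genes were called. None of the 7 members was called by edgeR or DESeq2 or had an unadjusted p under 0.05 (13.8% of all genes had), and 3 lay lower in Ex without overlap, against 28.3% of all genes; 0.0423% of all genes fell. In thinned cells the share with any member's UMI was 59.6% and 58.7% in Ex against 49.6% and 71.2% in Sed. The cluster led by Cxcl9 and Arg1, with 667 and 274 cells in Ex and 220 and 174 in Sed, had a family level of 639 and 572 CPM in Ex against 488 and 589 in Sed. Tested alone, it had 0 of 7 members called, 1 of them with an unadjusted p under 0.05, where 1.81% of all genes fell. The cluster led by Cx3cr1 and Cd207 had 321 and 318 CPM in Ex against 445 and 866 CPM in Sed, from 120 and 27 cells in Ex and 25 and 180 in Sed. Markers of the class itself summed to 7300 and 5840 CPM in Ex and 13500 and 12800 CPM in Sed.

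Endothelial-like cells, a remnant of the CD45 enrichment, also had lower levels in Ex. All 5 members tested lay lower without overlap, against 19.7% of all genes, and 3 fell, against 6.06%. Oas2 had 3.80 and 1.25 CPM in Ex against 27.1 and 25.6 CPM in Sed (-3.73 ± 0.52, edgeR adjusted p = 0.00101), Oasl1 had 4.75 and 7.53 against 38.0 and 42.9 (-2.78 ± 0.35, adjusted p = 0.000546), and Oasl2 had 33.2 and 37.2 against 112 and 86.9 (-1.61 ± 0.25, adjusted p = 0.00171). These calls held under each alternative run on the whole class, the fits without 1 library among them. The class differed in make-up: a cluster led by Plpp3 and Cyp26b1 held 128 and 340 Ex cells and no Sed cell, and one led by Abcc9 held 1 and 4 Ex cells against 57 and 171 Sed cells. In the shared cluster led by Clec4g, a marker of liver sinusoidal endothelium, the family level was 85.5 and 55.5 CPM in Ex against 349 and 293 CPM in Sed. Only 2 members had enough UMIs for a test in that cluster alone, and Oas3 fell, with 13.1 and 2.41 CPM in Ex against 55.1 and 73.4 CPM in Sed (-3.25 ± 0.70, adjusted p = 0.00856; 4.81% of all genes fell), while Oasl2 was not called (-1.75 ± 0.63, adjusted p = 0.104). Monocyte markers in endothelial-like cells summed to 41.8 and 45.6 CPM in Ex and 349 and 227 CPM in Sed, and the 4 erythroid markers to 3710 and 4780 CPM in Ex and 23.5 and 19.6 CPM in Sed. The 9 endothelial markers summed to 14300 and 16300 CPM in Ex and 9570 and 9690 CPM in Sed. The part of these transcripts in the difference was not tested.

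B-like cells had low levels and 3 of 5 members that fell, where 1.23% of all genes did; 4 lay lower in Ex without overlap, against 17.0%. Oasl1 had 9 and 5.54 CPM in Ex against 36.9 and 23.5 CPM in Sed (-2.26 ± 0.32, edgeR adjusted p = 0.000414). Oas2 had 4.30 and 3.33 CPM against 17.8 and 13.8 (-2.22 ± 0.37, adjusted p = 0.00257), and Oasl2 had 11.0 and 5.27 against 30.9 and 18.0 (-1.83 ± 0.36, adjusted p = 0.0164). The groups were apart for each of the 3, with 23 to 47 UMIs per gene behind the Ex values. Oas1c did not follow, with 8.61 and 4.43 CPM in Ex and 7.24 and 7.60 CPM in Sed (-0.35 ± 0.43, adjusted p = 0.709). DESeq2 gave none of the members an adjusted p in this class. Without Sed 1, a fit that leaves 1 Sed library, only Oasl1 remained called, and fewer of all genes fell too. With sums thinned to the smallest total 2 of the 3 stayed called, where 53 of 7920 genes were called. Neutrophil markers in B-like cells summed to 102 and 44.6 CPM in Ex and 347 and 220 CPM in Sed, with 1 of the 9 at 0 in Sed 2 and none in the other libraries; their part in the difference was not tested. Tested alone, the B-like cluster led by Fcer2a had 3 of 5 members that fell, where 2.56% of all genes did, and the cluster led by Ebf1 had 0 of 3, 2 of them with an unadjusted p under 0.05, where 0.340% did.

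The other lymphocytes gave no call. In CD8 T-like cells Oas3 had 52.7 and 32.2 CPM in Ex against 31.8 and 48.1 CPM in Sed (0.15 ± 0.29, edgeR adjusted p = 0.846) and Oasl2 had 26.7 and 14.2 against 17.1 and 9.73 (0.63 ± 0.40, adjusted p = 0.5). The groups overlapped for every one of the 6 members tested, against 24.1% of all genes that lay lower in Ex without overlap; none had an unadjusted p under 0.05 (15.5% of all genes had) and DESeq2 called none, while 2.13% of all genes fell. The clusters of this class differed between groups: one led by Gzmk had 3 and 10 cells in Ex against 217 and 398 in Sed, one led by Tcf7 had 324 and 172 against 45 and 37, and a small one led by the interferon-inducible gene Ifit1bl1 had 92 and 22 cells in Ex against 2 and 2 in Sed. That last cluster had a family level of 386 and 336 CPM in Ex, against 82.7 and 66.1 CPM in the Tcf7 cluster of the same libraries. In the Dapl1 cluster tested alone 1 of 2 members fell, where 1.37% of all genes did: Oasl2 (-2.59 ± 0.68, adjusted p = 0.0126).

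In NK-like cells Oas3 had 33.4 and 15 CPM in Ex against 17.9 and 16.9 CPM in Sed (0.37 ± 0.46, edgeR adjusted p = 0.718), and Oasl1 had 28.3 and 5.62 against 17.9 and 16.9 (-0.05 ± 0.54, adjusted p = 0.975). Both overlapped (14.9% of all genes lay lower in Ex without overlap, and 0.286% fell), and neither had an unadjusted p under 0.05 (15.7% of all genes had) or a call by DESeq2. In CD4 T-like cells only Oas3 could be tested, with 33.7 and 27.4 CPM in Ex against 59.0 and 66.9 CPM in Sed (-1.12 ± 0.40, adjusted p = 0.255). It lay lower without overlap, as did 16.3% of all genes (0.360% fell), with an unadjusted p under 0.05 (10.9% of all genes had one) and no call by DESeq2. In clusters tested alone, led by Ifng (CD4 T-like), Tcf7 (CD8 T-like) and Klra4 (NK-like), edgeR called 0 of 1, 0 of 2 and 0 of 1 member, none with an unadjusted p under 0.05, where 0.126%, 0.257% and 0.0865% of all genes fell.

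Cycling cells and conventional type 1 dendritic-like cells had lower levels without a call. In cycling cells all 6 members tested lay lower in Ex without overlap, against 18.1% of all genes, with log2 changes from -2.25 ± 0.45 for Oasl2 (15 and 3.33 CPM in Ex, 43.3 and 56.4 in Sed; edgeR adjusted p = 0.141) to -1.32 ± 0.56 for Oas1c. All 6 had an unadjusted p under 0.05 (9.99% of all genes had), and 0.106% of all genes fell by edgeR. DESeq2 called 1, with 0.361% of all genes. Without Sed 1, a fit that leaves 1 Sed library, edgeR called more members and more of all genes. In the cluster led by the granulocyte precursor genes Elane and Mpo the family level was 44.2 and 20.2 CPM in Ex against 193 and 243 in Sed, and in the one led by Hist1h1b and Top2a it was 78.7 and 52.3 against 64.2 and 71.9. In conventional type 1 dendritic-like cells Oasl1 had 7.38 and 21.7 CPM in Ex against 66.3 and 31.9 CPM in Sed (-1.92 ± 0.56, adjusted p = 0.229). Of 3 members tested there 2 lay lower without overlap, against 13.4% of all genes. Of the 3, 1 had an unadjusted p under 0.05 (11.0% of all genes had), and DESeq2 called none. By edgeR 0.253% of all genes fell. A member was called without Sed 2 and without Ex 2, fits that leave 1 library in a group and in which more of all genes fell. Some of these cells carried B-cell markers: by the same reckoning as for Kupffer-like cells, free RNA of the library's average make-up would bring 71.1% and 57.0% of the family level in Ex and 29.3% and 109% in Sed, and 37.5% and 66.3% in Ex against 38.5% and 40.6% in Sed for cycling cells.

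**Figure D3:**
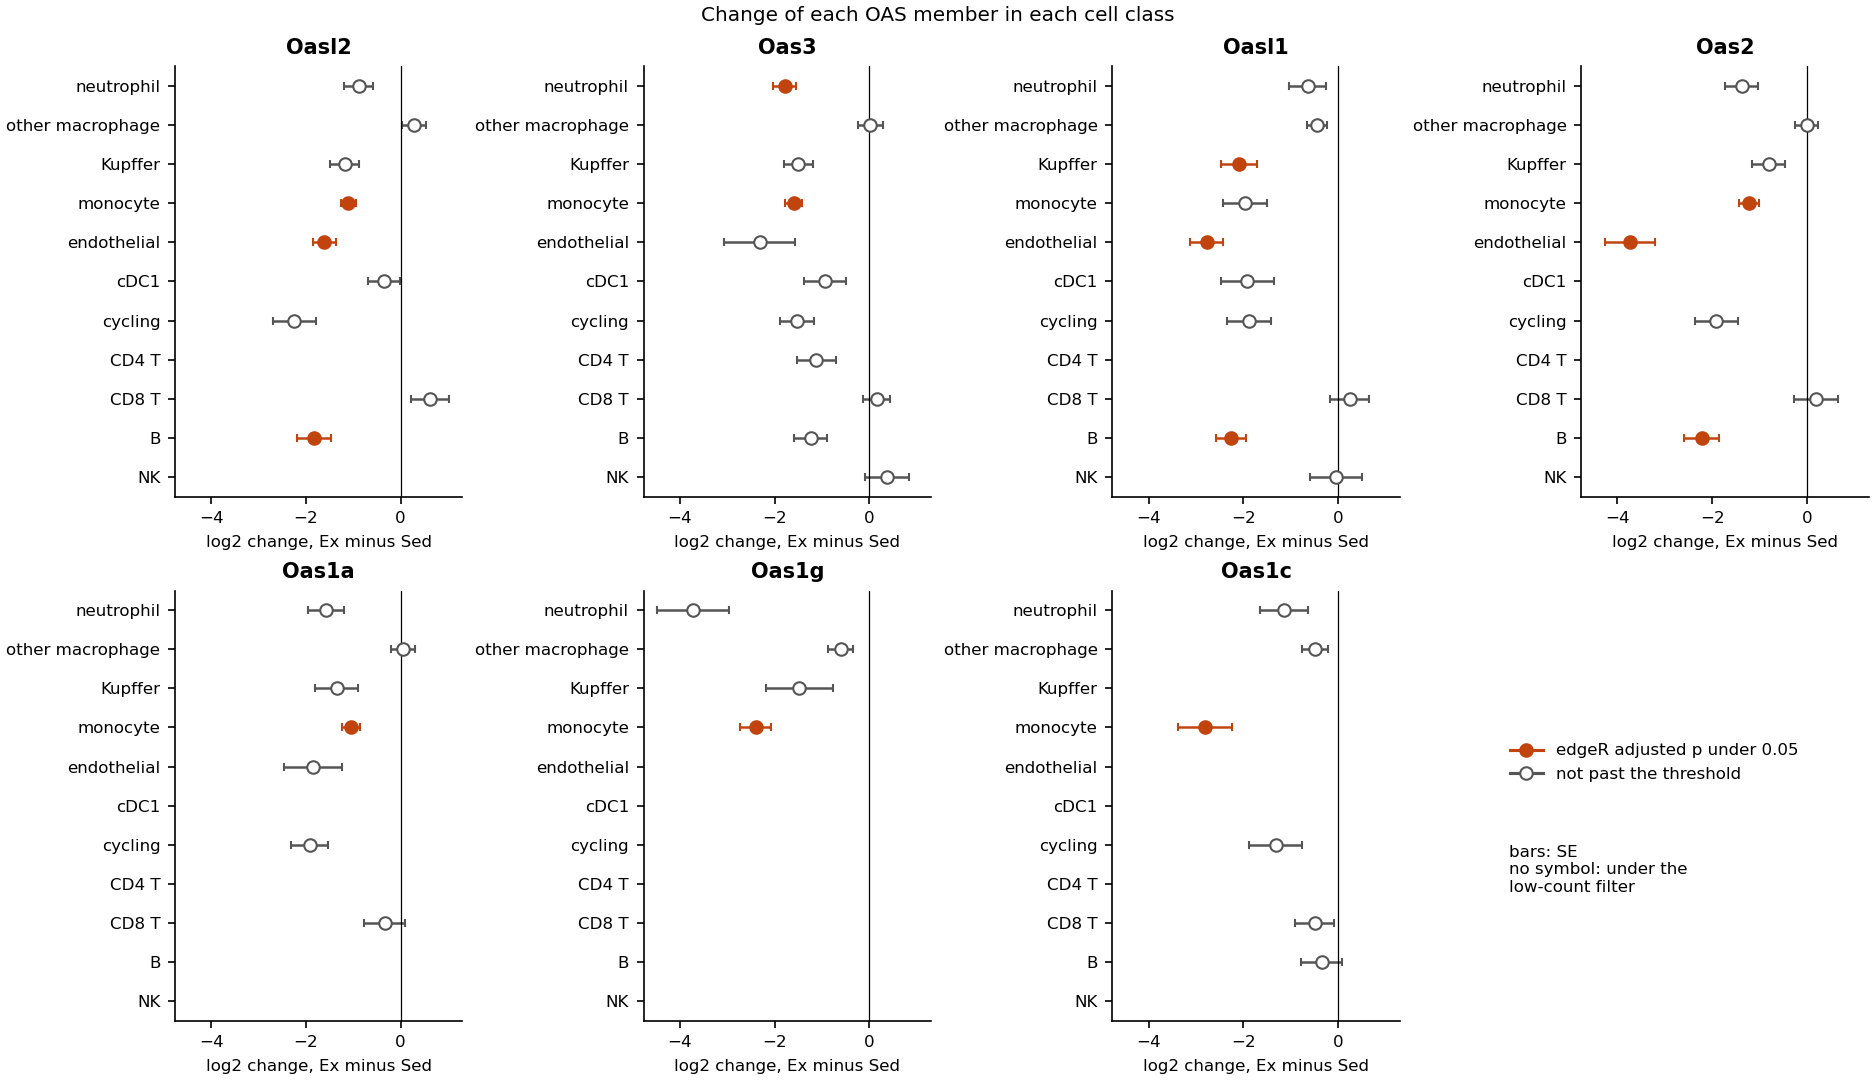
Log2 change of each OAS member (x axis, Ex minus Sed, bars 1 SE) by cell class (rows); filled symbols have an edgeR adjusted p under 0.05. All 14 filled symbols lie left of 0, and the symbols of CD8 T-like, NK-like and other macrophage-like cells lie nearer to 0 than those of monocyte-like cells for the members shown in both.

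**Figure D4:**
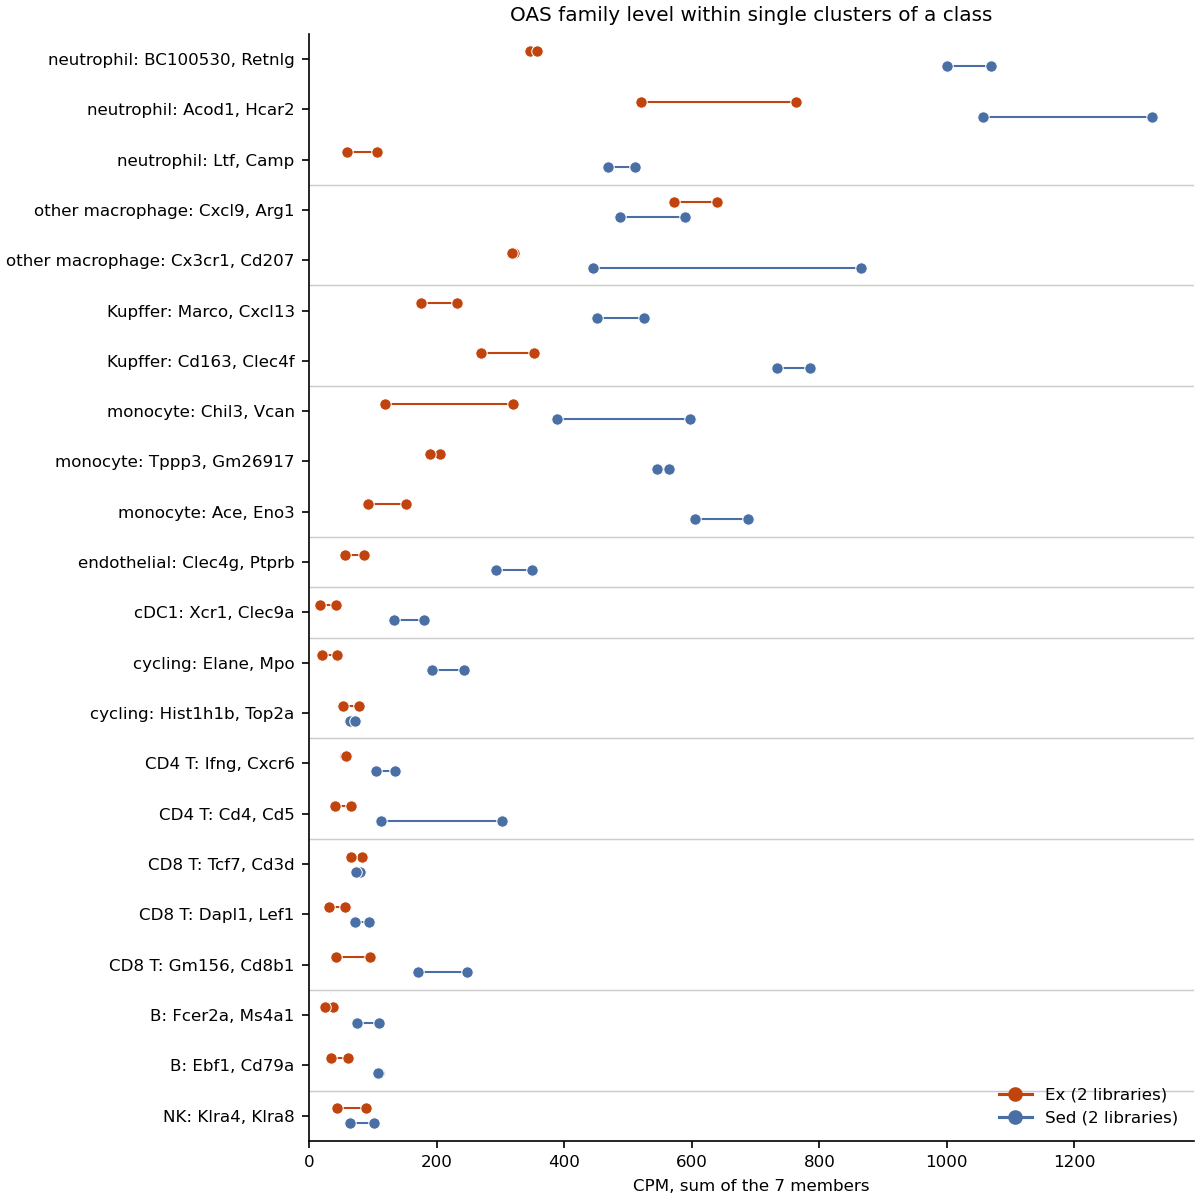
Family level (x axis, CPM, sum of the 7 members) in single clusters of 10 or more cells per library, from the tested classes, named by class and leading genes; each point is 1 library, the line joins the 2 libraries of a group, Ex above Sed. Both Ex points lie left of both Sed points in 18 of 22 clusters and to the right in 0. The clusters share the same libraries and are not replicates.

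Counted over single clusters, the family level was lower in both Ex libraries in 18 of 22 clusters with at least 10 cells in every library, overlapped in 4 and was higher in 0. With at least 30 cells in every library it was lower in 10 of 13 and overlapped in 3. The clusters come from the same 4 libraries and are not replicates. The share of all genes with this pattern in single clusters was not computed. In class sums 20.4% of all gene and class pairs lay lower in Ex without overlap, and 27.0% lay higher. The overlapping ones included the Cxcl9 cluster of other macrophage-like cells and the Tcf7 cluster of CD8 T-like cells.

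Whether the change differed between classes was tested directly, for Kupffer-like cells against each other class, with the library as a block. Against CD8 T-like cells the changes of Oas3 (difference of log2 changes -1.69 ± 0.38, edgeR adjusted p = 0.00549), Oasl1 (-2.42 ± 0.51, 0.00691) and Oasl2 (-1.89 ± 0.42, 0.0056) were more negative in Kupffer-like cells, where 2.33% of all genes differed. Against other macrophage-like cells the same 3 members differed: Oas3 by -1.58 ± 0.34 (adjusted p = 0.00785), Oasl1 by -1.73 ± 0.38 (0.0112) and Oasl2 by -1.52 ± 0.34 (0.0129), with 1.44% of all genes. Against NK-like cells Oas3 (-1.87 ± 0.52, adjusted p = 0.0218) and Oasl1 (-2.12 ± 0.55, 0.0125) differed, with 1.96% of all genes. Oas2 was the one member whose change was less negative in Kupffer-like than in endothelial-like cells (2.86 ± 0.69, adjusted p = 0.026; 1.21% of all genes). No member differed by this test between Kupffer-like cells and the B-like, CD4 T-like, conventional type 1 dendritic-like, cycling, monocyte-like or neutrophil-like class, which does not show that they changed alike; 6 of these 41 tests had an unadjusted p under 0.05. In these 6 comparisons 0.636%, 0.447%, 0.673%, 1.16%, 1.27% and 0.0554% of all genes differed. Of these 9 differences, 5 were called without Sed 1 and 1 without Ex 1.

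Other genes of the pathway were read from lists. Of 72 tests of 8 RNA sensors, 8 fell and none rose, against 1.19% and 0.943% of all gene and class pairs. By unadjusted p under 0.05, 29 were lower and 1 higher, against 7.65% and 7.33% of all pairs. DESeq2 called 4 lower and none higher. Zbp1, a sensor of Z-form nucleic acid and one of the 3 genes closest to Oas3 in class profile, fell in neutrophil-like cells (90.9 and 85.6 CPM in Ex, 328 and 318 in Sed; -2.05 ± 0.24, adjusted p = 0.0111), in monocyte-like cells (-1.04 ± 0.21, adjusted p = 0.0409) and in endothelial-like cells (-3.91 ± 0.48, adjusted p = 0.00339). The neutrophil-like call was lost without Ex 1 (log2 change -2.28) and without Ex 2 (-1.89), as was the monocyte-like call (-1.16 and -0.93). The monocyte-like call was also lost with a stricter cell filter (edgeR adjusted p = 0.0578). At resolution 2 the monocyte-like change was only -0.25 (adjusted p = 0.495). Ddx58 (RIG-I; -0.84, adjusted p = 0.0222) and Dhx58 (LGP2; -1.42, adjusted p = 0.0498) also fell in endothelial-like cells. In B-like cells Dhx58 (-1.23, adjusted p = 0.0459), Eif2ak2 (PKR, a kinase that stops translation; -1.06, adjusted p = 0.0264) and Tlr7 (an endosomal sensor of single-stranded RNA; -1.50, adjusted p = 0.00944) fell. Without Ex 1 and without Ex 2 Ddx58 and Dhx58 lost their endothelial-like calls (log2 changes from -1.59 to -0.81), and Dhx58 also without Sed 1 (-1.06). DESeq2 called neither (adjusted p = 0.212 and 0.254), nor did edgeR with the replicate block (0.0565 and 0.0889). In B-like cells all 3 calls were lost without Sed 1 (log2 changes from -1.40 to -1.03). Those of Dhx58 and Eif2ak2 were also lost without Sed 2 (-1.095 and -0.94) and without Ex 2 (-0.93 and -0.845). A stricter cell filter lost the same calls of Dhx58 and Eif2ak2 (edgeR adjusted p = 0.409 and 0.204), as did the replicate block (0.0899 and 0.0628). With thinned sums Dhx58, Eif2ak2 and Tlr7 were all not called (0.119, 0.113 and 0.0515), and DESeq2 gave them no adjusted p.

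Among 12 genes of interferon signalling, 6 of 130 tests fell and 1 rose, against 1.19% and 0.943% of all gene and class pairs. By unadjusted p under 0.05, 26 were lower and 13 higher, against 7.65% and 7.33% of all pairs. The log2 change was below 0 in 65 of the 130, near the 50.2% of all pairs. DESeq2 called 11 lower and 1 higher. Isg15, a ubiquitin-like interferon target, fell in endothelial-like cells (52.2 and 57.3 CPM in Ex, 322 and 307 in Sed; -2.67 ± 0.21, edgeR adjusted p = 1.49e-05) and in CD4 T-like cells (208 and 164 in Ex, 423 and 512 in Sed; -1.41 ± 0.25, adjusted p = 0.00118). Irf7 fell in CD4 T-like cells (-1.70 ± 0.30, adjusted p = 0.00125) and in conventional type 1 dendritic-like cells (186 and 144 CPM in Ex, 575 and 506 in Sed; -1.88 ± 0.22, adjusted p = 0.00483). Usp18, which removes Isg15 from proteins and damps the interferon receptor, fell in endothelial-like cells (-1.98 ± 0.33, adjusted p = 0.0026), and Irf9, a subunit of the factor that binds the response element, fell in B-like cells (-1.07 ± 0.22, adjusted p = 0.0157). Without Ex 2 the CD4 T-like calls of Irf7 (log2 change -1.38) and Isg15 (-1.20) and the Irf9 call (-0.80) were lost. The Irf9 call was also lost without Sed 1 (-0.83). DESeq2 did not call Irf7 in CD4 T-like cells (adjusted p = 0.146) and gave Irf9 no adjusted p in B-like cells. The gene that rose was Irf1, in monocyte-like cells, with 164 and 164 CPM in Ex against 99.5 and 69.9 CPM in Sed (0.96 ± 0.20, edgeR adjusted p = 0.042). The call was lost without Ex 1 (log2 change 0.92) and without Ex 2 (0.98), and with a stricter cell filter (edgeR adjusted p = 0.0554). In Kupffer-like cells neither edgeR nor DESeq2 called a listed gene, with 3 sensors and 4 signalling genes lower at an unadjusted p under 0.05; Irf7 had 417 and 508 CPM in Ex against 1190 and 985 CPM in Sed (-1.16 ± 0.33, adjusted p = 0.23) and Isg15 had 242 and 194 against 574 and 509 (-1.20 ± 0.32, adjusted p = 0.204). None of the other Oas1 genes in the matrix passed the low-count filter in any class.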

How the data were processed

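Per the labels, single-cell libraries were made with the 10x Chromium 3′ v3.1 kit; per the submitters' processing notes Cell Ranger 7.0.0 and mm10 (GRCm38) were used, while the matrix header names Cell Ranger 6.1.1. The authors deposited raw UMI counts per gene and cell; whether depth was equalised is not given in the sources used here. The 22615 matrix columns without a barcode were not used. Barcode suffixes were taken to follow the order of libraries in the labels, an assumption that sets the groups. The cell filter asked for 200 genes or more and a mitochondrial share of at most 10%. Scrublet's own thresholds marked 0.017% and 0.024% of cells in Ex and 3.498% and 0% in Sed, so the highest doublet scores were removed at 0.8% per 1000 cells (293 and 144 cells in Ex, 422 and 462 in Sed). Cells were clustered with scanpy 1.11.5 (2000 variable genes without the members, 30 components, 15 neighbours, Leiden resolution 1) and named from marker lists. Sums of UMIs for each class and library were tested with edgeR 4.0.16 (quasi-likelihood, TMM, filterByExpr, Benjamini-Hochberg over all genes); likeness was computed on log2(CPM + 1). Shares of cells were taken after thinning to 2000 UMIs, with exact binomial intervals. The text names every member, listed pathway genes past the threshold and Irf7 and Isg15, and for each member the 3 genes closest in profile. A further list of pathway genes that this rule covers is not reported here. The members and lists were chosen with earlier results of these data known. Tests were tried on simulated data. Alternatives were DESeq2 1.42.0, no low-count filter, a cell filter of 500 genes and 5% mitochondrial UMIs, doublets kept, Leiden resolution 2, members left among the clustering genes, thinned sums, a replicate block, single libraries left out, Kupffer-like cells without their cluster of lowest median UMIs, and single clusters.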

Additional observations from a re-analysis of the deposited data

Results flagged for a closer look

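Members whose change (Ex minus Sed) differed between Kupffer-like cells and another class, by the interaction test in edgeR, were singled out. The values are the log2 change in Kupffer-like cells minus that in the other class. Against CD8 T-like cells they were -1.69 for Oas3, -2.42 for Oasl1 and -1.89 for Oasl2. Against NK-like cells they were -1.87 for Oas3 and -2.12 for Oasl1. Against other macrophage-like cells they were -1.58 for Oas3, -1.73 for Oasl1 and -1.52 for Oasl2. Against endothelial-like cells the value was 2.86 for Oas2. In sums thinned to the smallest total only the difference of Oas3 from other macrophage-like cells was called, and without Ex 1 only that of Oas2 from endothelial-like cells.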

How the results depend on the processing

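For the 14 member and class pairs called and the other Kupffer-like members, the log2 change stayed below 0 in all 228 recalculations; 194 kept their side of the threshold, 29 lost the call and 5 gained it. For the 41 pairs not called, the sign changed in 29 of 483 recalculations, in 13 pairs: 15 in other macrophage-like, 6 in CD8 T-like, 5 in NK-like cells and 1 each in B-like, conventional type 1 dendritic-like and monocyte-like cells. Calls depended more on the setting, and the causes were not tested. With DESeq2 the members called numbered 1 in cycling cells (0 with edgeR), where 46 of 9413 genes were called. They numbered 2 in neutrophil-like cells (1), where 62 of 7048 genes were. No member had a DESeq2 adjusted p in B-like cells. Without the low-count filter they were 3 in Kupffer-like cells (164 of 14546 genes called), 1 in conventional type 1 dendritic-like (240 of 13638) and 6 in cycling cells (314 of 15313). They were 5 in endothelial-like (1469 of 14930) and 5 in neutrophil-like cells (268 of 14576). With doublets kept they were 0 in Kupffer-like (7 of 7417 genes called), 1 in cycling (62 of 9863) and 5 in endothelial-like cells (1070 of 9900). At resolution 2 they were 1 in CD8 T-like cells (Oasl2, which rose there, with 1139 of 8631 genes called). They were 0 in Kupffer-like (0 of 6567) and 3 in monocyte-like cells (1224 of 10950). There 1014 other macrophage-like cells fell into the monocyte-like class, and 416 Kupffer-like cells into the other macrophage-like class. With members left among the clustering genes they were 0 in Kupffer-like (0 of 6931 genes called) and 6 in cycling cells (253 of 9752). In Kupffer-like cells they were 0 with thinned sums (8 of 3603) and 0 without the cluster of lowest UMIs (0 of 5701). With single libraries left out the counts shifted in most of these classes and for the differences between classes, and the calls over all genes shifted as well. In monocyte-like and neutrophil-like cells no member was called without Ex 1 or without Ex 2. Leaving out 1 library leaves a group with 1, whose spread is taken from the other. In single clusters, an alternative chosen after seeing the data, the counts were 0 (Ebf1, B-like), 1 (Dapl1, CD8 T-like), 0 (Marco, Kupffer-like), 1 (Clec4g, endothelial-like), 0 (Chil3, monocyte-like), 3 (Ltf, neutrophil-like) and 0 (Acod1, neutrophil-like). The differences between classes called, 9 in the report, were 4 at resolution 2 and 1 with thinned sums. With the replicate block the counts were 2 in Kupffer-like (49 of 7102 genes called) and 4 in neutrophil-like cells (346 of 7048). The block changed no other count of calls by over 1.5 times. Deviations of same-numbered libraries correlated between -0.077 and 0.208 over genes. With 2 libraries in a group these correlations cannot show whether the numbers pair the libraries. No member was called in CD4 T-like, NK-like or other macrophage-like cells where these settings gave a test. Some settings could give no call. With thinned sums and without Ex 1, 0 members passed the low-count filter in NK-like cells. CD4 T-like cells had no test at resolution 2 and 1 member tested in most other settings. Other macrophage-like cells had 0 of 8730 genes called at resolution 2. Depth limits Oas1g and Oas1c most, and Kupffer-like cells in Ex.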

Other observations

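Several classes too small for a test also carried the family. Hepatocyte-like cells, 3 and 7 in the Ex libraries and 74 and 89 in the Sed libraries, had a family level of 813 and 870 CPM in Sed, led by Oas2 with 265 and 294 CPM; the Ex cells were too few for a level. In plasmacytoid dendritic-like cells, professional producers of type I interferon, Oasl2 made up most of the family, with 81.2 and 33.6 CPM of 117 and 47.5 in Ex and 161 and 71.9 CPM of 204 and 88.5 in Sed. In conventional type 2 dendritic-like cells the family level was 180 and 162 CPM in Ex against 431 and 357 CPM in Sed, from 116 and 47 cells in Ex and 15 and 124 in Sed. Migratory dendritic-like cells had no UMI of Oas2 or Oas3 in any library but carried Oasl1 at 124 and 0 CPM in Ex and 38.8 and 88.6 CPM in Sed. An unnamed lymphocyte cluster led by Xcl1 and Cd7 had 33.7 and 29.6 CPM in Ex against 133 and 132 CPM in Sed, and an unnamed cluster led by the platelet genes Ppbp and Myl9 had 185 and 151 CPM in Ex against 561 and 449 CPM in Sed. These values have no test.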
